A study of Mus musculus with 4 samples.

Results

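Respiratory complex I genes were measured in mouse hearts as 44 of 18193 genes, chosen because their symbol starts with Nduf and because at least 1 probe set on the array carried that symbol alone. Of the 44 genes, 36 are named as subunits (Ndufa, Ndufb, Ndufc, Ndufs and Ndufv) and 8 as assembly factors (Ndufaf1 to Ndufaf8). The 36 include Ndufa4, now counted with cytochrome c oxidase, and its paralog Ndufa4l2, which stay in all subunit counts below. The study deleted Rhau (official symbol Dhx36), which encodes an RNA helicase that unwinds G-quadruplexes, and asked how the adult heart responds. The arrays labelled Rhau KO came from CAAG-ERT2-Cre;Rhau F/F mice, in which a tamoxifen-inducible Cre is driven by CAAG, a promoter active in most cell types rather than in cardiomyocytes alone. The arrays labelled Control came from Rhau F/F littermates, which carry the same floxed alleles without the Cre. Both genotypes were C57BL/6J adults given 5 doses of tamoxifen at 2 months of age, and hearts were taken 2 months later, with 2 arrays per group and 4 in all. Nothing in the labels says whether each array held the RNA of 1 animal or of a pool, so a p-value here speaks of the scatter among 4 arrays, which may be technical.

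Complex I, NADH:ubiquinone oxidoreductase, takes electrons from NADH in the mitochondrial matrix, passes them through a flavin and a chain of iron-sulfur clusters to ubiquinone, and pumps protons across the inner membrane. Its core subunits carry out this chemistry, those of the matrix arm are coded in the nucleus and those of the membrane arm in mitochondrial DNA, while the many accessory subunits surround the core. Assembly factors build the complex and are not part of the finished enzyme. Heart muscle is packed with mitochondria and depends on this chain for its ATP.

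The labels were first checked against the data. Dhx36 ran against them: its probe sets read 568 and 537, 627 and 537, and 327 and 276 on the arrays labelled Rhau KO, against 327 and 194, 156 and 172, and 253 and 149 on the arrays labelled Control, and whether these probe sets lie in the deleted exons was not analysed here. Control replicate 1 read low for most heart transcripts, although a few markers such as Myl2 (37359 on it) were near their level on the other arrays. All 19 cardiomyocyte markers measured were lowest on it, and their summed intensity was 519697 and 533359 on the Rhau KO arrays, against 132980 and 543889 on the Control arrays. Their median intensity was 27320 and 30369 on the Rhau KO arrays, against 101 and 33614 on the Control arrays. Tnni3, cardiac troponin I, read 39371 and 37838 on the Rhau KO arrays, against 10.3 and 38930 on the Control arrays. All 18 fast skeletal muscle markers were highest on Control replicate 1, with sums of 85310 and 86660 on the Rhau KO arrays, against 665413 and 90455 on the Control arrays. Their median intensity was 87.2 and 55.6 on the Rhau KO arrays, against 37962 and 75.5 on the Control arrays. A few of them, such as Ckm (30491 and 31305 on the Rhau KO arrays, against 39279 and 29873 on the Control arrays), were bright on every array and made up most of the lower sums. Endothelial and macrophage markers were also lowest on Control replicate 1, in 8 of 8 and 8 of 8 genes (40% of all genes). Their median log2 differences were 0.60 and 0.53 with all arrays and -0.040 and -0.080 without it. Fibroblast markers were mixed, as Control replicate 1 was the lowest in 4 of 8 and the highest in 3 of 8 (29.9% of all genes). It was the lowest in 3 of 5 slow skeletal muscle, 2 of 4 brown adipocyte and 2 of 3 erythroid markers. The part of these cell types in the results was not tested. Control replicate 2 stood apart in the summed intensity of 9 heat shock genes. The sums were 92055 and 87445 on the Rhau KO arrays, against 58596 and 205373 on the Control arrays. Not every gene stood apart, since Hspd1 read 15645 and 14503 on the Rhau KO arrays, against 8502 and 15958 on the Control arrays. Control replicate 1 was the lowest array in 7 of the 9. Every direction below therefore refers to the arrays as labelled, and the lists and the genes given in most detail are reported with and without Control replicate 1. In whole tissue, fewer cells of a type and less RNA per cell cannot be told apart.

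Complex I subunit transcripts were slightly higher on the arrays labelled Rhau KO, and no single subunit passed the test. The median intensity of the 36 subunits was 26875 and 27294 on the Rhau KO arrays, against 20245 and 23806 on the Control arrays. Their median log2 difference, Rhau KO minus Control, was 0.19, or 1.14-fold, and ran between -0.44 for Ndufb1 and 0.58 for Ndufa8, while the median of all genes was 0.091. A difference above 0 was seen in 34 of 36 subunits (56.9% of all genes), a count that was 23 of 36 (46.7% of all genes) when each array was centred on its own median. In 27 of 36 subunits both Rhau KO arrays lay above both Control arrays (21.7% of all genes), and only Ndufb1 lay below both (14.6% of all genes). With limma, 0 of 36 subunits and 0% of all genes passed an adjusted p of 0.05. At an unadjusted p of 0.05 limma called 785 genes (4.31%), of which 389 were higher (2.14%), and none of the 44 complex I genes was among them. The methods' t-test called 0 genes after adjustment and 941 before it. Adjusted p-values of the subunits ran between 0.873 and 0.976, with standard errors of the log2 difference between 0.18 and 0.58.

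**Figure D1:**
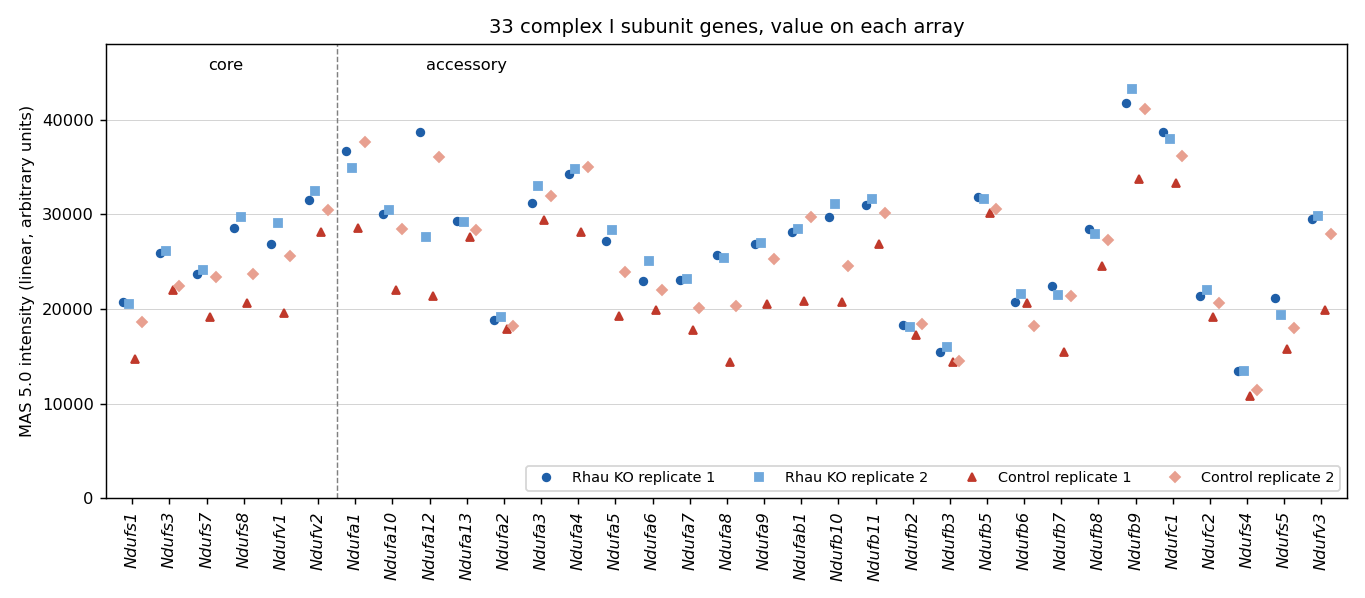
The plot gives the intensity (linear, arbitrary units) of the 33 subunit genes whose mean exceeded 10000 on each of the 4 arrays, with core subunits left of the dashed line. Rhau KO points (blue) lie close together, and the red triangles of Control replicate 1 are the lowest point for most genes, while Control replicate 2 often lies near the Rhau KO points.

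The 2 Rhau KO arrays lay close together. Their log2 values differed by a median of 0.035 over the 36 subunits, and by under 0.1 in 29 of them, whereas the 2 Control arrays differed by a median of 0.19. Over all genes these medians were 0.27 between the Rhau KO arrays and 0.65 between the Control arrays. Control replicate 1 was the lowest of the 4 arrays in 32 of 36 subunits (40% of all genes) and the highest in 0 (29.9% of all genes). After median centring it was the lowest in 19 of 36 (32.6% of all genes). The part of the low heart markers in these low values was not tested.

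Leaving out Control replicate 1 reduced the difference. The subunit median was then 0.078, or 1.06-fold, against 0.030 for all genes. Values above 0 were found in 29 of 36 subunits (52.8% of all genes), and both Rhau KO arrays lay above Control replicate 2 in 28 of 36 (39.6% of all genes). In this fit the lone Control array is assumed to vary as the Rhau KO arrays do. It called 149 genes at an adjusted p of 0.05 (0.819%), and 0 of them were complex I genes. At an unadjusted p of 0.05, 5 subunits were higher, namely Ndufa8, Ndufb10, Ndufs3, Ndufs4 and Ndufs8 (7.51% of all genes). With median centring as well, the subunit median was 0.0096, against -0.039 for all genes, and 19 of 36 subunits were above 0 (46.1% of all genes). Centring shifts every gene by the same amount, so it lowers the subunits and all genes alike. Against Control replicate 1 alone the picture was another one. There 15 of 36 subunits were higher at an adjusted p of 0.05 (13.5% of all genes), with a median of 0.30.

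Short stretches of promoter sequence are shown for 6 members. NRF1 and the ETS factor GABP are well-known activators of nuclear genes for the respiratory chain. The 6 are the 4 genes with the NRF1 core, and Ndufs8 and Ndufs3 among the 6 with the ETS motif. No stretch is shown for the other ETS genes or for the YY1 and estrogen-related receptor motifs. The motifs were chosen after the values, so the stretches are examples only. RefSeq (GRCm38.p6) gave a promoter, taken as 250 bases before to 50 after the gene start, for 39 of the 44 genes. The NRF1 core GCATGCGC, searched on both strands, was found in 4 of 39 (10.3%), namely Ndufa6, Ndufa8, Ndufaf4 and Ndufaf5, against 3.05% of 27025 promoters. Each line gives 30 bases in the direction of the gene, 5′ to 3′, with the motif in capitals and the position of its first base counted from the start used in the promoter table as 0. For Ndufaf5 that start lies inside the annotated gene, whose first base is 140170584.
Ndufa8, chr2:36049328-36049357, minus strand, motif at position -8: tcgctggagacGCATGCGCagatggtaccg
Ndufaf4, chr4:24897961-24897990, plus strand, motif at position -111: cagatgtctgcGCATGCGCctgtgcggaag
Ndufa6, chr15:82354356-82354385, minus strand, motif at position -83: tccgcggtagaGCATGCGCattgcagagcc
Ndufaf5, chr2:140170653-140170682, plus strand, motif at position 18: gtcccgttggcGCATGCGCctaatagaaac

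The ETS motif CCGGAAG, also searched on both strands, was found in 6 of 39 promoters (15.4%), namely Ndufaf1, Ndufaf8, Ndufb6, Ndufb7, Ndufs3 and Ndufs8, against 9.93% of all promoters. In Ndufs8 it lies on the other strand, so that the capitals read as its reverse complement.
Ndufs8, chr19:3912742-3912771, minus strand, motif at position 15: cttaggctccgcCTTCCGGttgaaccgcat
Ndufs3, chr2:90904731-90904760, minus strand, motif at position -27: ccccgcgtccgcCCGGAAGaagagtcactg

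The YY1 motif AAGATGGCG was found in 5 of 39 (12.8%, against 1.64% of all promoters) and the estrogen-related receptor motif AAGGTCA in 3 of 39 (7.69%, against 5.38%). Both were searched on both strands, and no motif contains another. A match describes these letters and does not show binding. The log2 differences of the 4 genes with the NRF1 core were 0.58 for Ndufa8, 0.54 for Ndufaf4, 0.19 for Ndufa6 and -0.28 for Ndufaf5. Without Control replicate 1 all 4 were above 0 (52.8% of all genes), at 0.33, 0.41, 0.12 and 0.24 in the same order. In that setting 29 of 36 subunits and 8 of 8 assembly factors were above 0, with or without this motif. The genes with the other motifs were not summarised in this way, and a link between motif and difference was not tested. Nrf1 itself read 175 and 203 on the Rhau KO arrays, against 163 and 235 on the Control arrays, and Gabpa, which encodes the DNA-binding part of GABP, read 1869 and 1806 on the Rhau KO arrays, against 1773 and 2206 on the Control arrays. Both sets of arrays overlapped for these regulators.

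All 6 core subunits measured lay above both Control arrays on both Rhau KO arrays (21.7% of all genes), and 3 of 6 (Ndufs1, Ndufs3 and Ndufs8) did so after median centring (15.3% of all genes). Their median log2 difference was 0.27 with all arrays, 0.14 without Control replicate 1 and 0.14 after median centring. Centring left 5 of 6 above 0 (46.7% of all genes). Ndufs8 and Ndufs7 hold the last iron-sulfur clusters before ubiquinone. Ndufs8, whose promoter carries the ETS motif shown above, read 28560 and 29732 on the Rhau KO arrays, against 20631 and 23682 on the Control arrays. The groups did not overlap, and the log2 difference was 0.40 ± 0.20 (SE, limma adjusted p = 0.873). Without Control replicate 1 it was 0.30 (unadjusted p = 0.0159, adjusted p = 0.244). All 6 of its probe sets were higher with all arrays, by 0.19 to 0.78, and without Control replicate 1 by 0.069 to 0.83. The largest value in each setting came from a dim probe set with a mean intensity of 265. Ndufs7 read 23657 and 24160 on the Rhau KO arrays, against 19141 and 23389 on the Control arrays. Its difference of 0.18 was 0.032 without Control replicate 1.

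The NADH end of the matrix arm is formed by Ndufv1, which binds NADH and the flavin, with the iron-sulfur subunits Ndufv2 and Ndufs1. Ndufv1 read 26861 and 29073 on the Rhau KO arrays, against 19548 and 25585 on the Control arrays. Its difference of 0.32 ± 0.23 (SE) was 0.13 without Control replicate 1. Ndufs1 read 20711 and 20498 on the Rhau KO arrays, against 14742 and 18631 on the Control arrays, a difference of 0.31 that was 0.15 without Control replicate 1. In both genes Control replicate 1 was the array that stood furthest off. Ndufv2 had the smallest difference among the core subunits with all arrays, with 31551 and 32419 on the Rhau KO arrays, against 28147 and 30502 on the Control arrays. Its difference of 0.13 was 0.068 without Control replicate 1 and -0.0041 after median centring. Ndufs3, which joins this end to the ubiquinone end, read 25908 and 26081 on the Rhau KO arrays, against 22041 and 22385 on the Control arrays. Here the Control arrays lay close together, and the difference was 0.23 with all arrays and 0.22 without Control replicate 1 (unadjusted p = 0.0476, adjusted p = 0.368).

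Among the 30 accessory subunits, 28 were above 0 (56.9% of all genes) and 18 were so after median centring (46.7% of all genes). Their median was 0.17 with all arrays, 0.068 without Control replicate 1 and 0.035 after centring. By name group, the median with all arrays was 0.22 for 14 Ndufa genes, 0.13 for 11 Ndufb genes, 0.14 for 2 Ndufc genes, 0.27 for 6 Ndufs genes and 0.32 for 3 Ndufv genes, the Ndufs and Ndufv groups including core members. Without Control replicate 1 these medians were 0.075 for Ndufa, 0.049 for Ndufb, 0.079 for Ndufc, 0.19 for Ndufs and 0.086 for Ndufv. All 6 Ndufs genes were above 0 after centring (46.7% of all genes) and, separately, without Control replicate 1 (52.8% of all genes). With both changes at once 5 of 6 were so (46.1% of all genes).

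Ndufa8, a subunit on the face of the membrane arm toward the intermembrane space, had the largest difference of the 36 with all arrays. It read 25743 and 25422 on the Rhau KO arrays, against 14357 and 20319 on the Control arrays. Both Rhau KO arrays were higher than either Control array, and the Control arrays also differed from each other, by more than the Rhau KO arrays did. The log2 difference was 0.58 ± 0.25 (SE, limma unadjusted p = 0.0703, adjusted p = 0.873), and 0.33 without Control replicate 1 (unadjusted p = 0.00937, adjusted p = 0.201). Ndufb10, which lies on the same face, read 29676 and 31108 on the Rhau KO arrays, against 20730 and 24531 on the Control arrays. Its difference was 0.43 with all arrays and 0.31 without Control replicate 1 (unadjusted p = 0.0146). Ndufa5, a matrix arm subunit, read 27241 and 28397 on the Rhau KO arrays, against 19234 and 23930 on the Control arrays, and its difference was 0.37 with all arrays and 0.22 without Control replicate 1. All 3 genes remained non-overlapping after median centring, as did Ndufa7, Ndufc1, Ndufs1, Ndufs3, Ndufs4, Ndufs5 and Ndufs8, together 10 of 36 subunits (15.3% of all genes).

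Ndufs4, a matrix arm subunit whose loss causes Leigh-like disease in mice, gave one of the most even readings. It read 13408 and 13486 on the Rhau KO arrays, against 10794 and 11499 on the Control arrays. The difference was 0.27 with all arrays and 0.23 without Control replicate 1 (unadjusted p = 0.0454, adjusted p = 0.360). Its other probe sets did not all go the same way, since the third brightest read 1106 and 883 on the Rhau KO arrays, against 1757 and 897 on the Control arrays, a difference of -0.35 that was 0.14 without Control replicate 1.

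Several accessory subunits showed small differences. Ndufb2 read 18369 and 18099 on the Rhau KO arrays, against 17312 and 18419 on the Control arrays, a difference of 0.030 that was -0.10 after median centring. Ndufb5 read 31786 and 31628 on the Rhau KO arrays, against 30108 and 30566 on the Control arrays, a difference of 0.064 that was 0.053 without Control replicate 1 and -0.067 after median centring. Its second probe set read 26743 and 24856 on the Rhau KO arrays, against 28586 and 25312 on the Control arrays, a difference of -0.061 that was 0.027 without Control replicate 1. Ndufb8 read 28457 and 27981 on the Rhau KO arrays, against 24559 and 27285 on the Control arrays, a difference of 0.12 that was 0.049 without Control replicate 1 and -0.0060 after median centring. These Ndufb proteins all sit in the membrane arm, but small differences were not confined to them. Ndufa13, Ndufa3 and Ndufa2 had differences of 0.064, 0.069 and 0.078 with all arrays.

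For 5 subunits (Ndufa1, Ndufa12, Ndufa4, Ndufab1 and Ndufb2) a difference above 0 with all arrays was below 0 without Control replicate 1. Ndufa12, which takes the place of the assembly factor Ndufaf2 at the end of assembly, was the case with the widest spread. It read 38662 and 27565 on the Rhau KO arrays, against 21334 and 36052 on the Control arrays. The arrays overlapped, and the difference of 0.24 was -0.14 without Control replicate 1. Ndufab1, the mitochondrial acyl carrier protein, read 28177 and 28469 on the Rhau KO arrays, against 20886 and 29722 on the Control arrays. Its difference was 0.18 with all arrays and -0.070 without Control replicate 1.

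Ndufa4, first described as a complex I subunit and now counted with cytochrome c oxidase, read 34242 and 34810 on the Rhau KO arrays, against 28193 and 34960 on the Control arrays. Only Control replicate 1 stood apart, so that its difference of 0.14 was -0.018 without that array. Its paralog Ndufa4l2, a hypoxia-inducible gene, read 224 and 282 on the Rhau KO arrays, against 237 and 158 on the Control arrays. Here Control replicate 2 was the lowest array, and the difference of 0.38 was 0.67 without Control replicate 1 (unadjusted p = 0.0774).

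Ndufb1 and Ndufb4 were the 2 subunits below 0. Ndufb1, a small membrane arm subunit, read 378 and 470 on the Rhau KO arrays, against 537 and 609 on the Control arrays. The groups did not overlap, and the log2 difference was -0.44 ± 0.27 (SE, limma adjusted p = 0.873) with all arrays and -0.53 without Control replicate 1. Ndufb4 read 52.6 and 29.2 on the Rhau KO arrays, against 41.4 and 54.5 on the Control arrays, a difference of -0.28 that was -0.48 without Control replicate 1. It was the only member under 100 on all arrays, a level under which 51.7% to 54.0% of probe sets lay on each array, and brighter probe sets that it shares with other symbols were not used.

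The 8 assembly factors also lay mostly above 0, with and without median centring, and none passed the test. Their median log2 difference was 0.40, or 1.32-fold, with 7 of 8 above 0 (56.9% of all genes). In 6 of 8 both Rhau KO arrays lay above both Control arrays (21.7% of all genes). After median centring the median was 0.27, with 6 of 8 above 0 (46.7% of all genes). Then 3 of 8 (Ndufaf2, Ndufaf4 and Ndufaf7) did not overlap, with the Rhau KO arrays higher (15.3% of all genes). Without Control replicate 1 the median was 0.19, and all 8 were above Control replicate 2 on both Rhau KO arrays (39.6% of all genes). Adjusted p-values ran between 0.873 and 0.998 with all arrays. The difference between assembly factors and subunits was not tested.

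Ndufaf3 and Ndufaf4 act together on the part of the matrix arm that binds ubiquinone, as worked out in human cells. Ndufaf3 read 3165 and 3319 on the Rhau KO arrays, against 1329 and 3003 on the Control arrays. Its difference of 0.70 ± 0.43 (SE) rested on Control replicate 1, which lay 1.25 log2 units under the mean of the other arrays, and was 0.11 without it. Ndufaf4, whose promoter holds the NRF1 core, read 4341 and 3502 on the Rhau KO arrays, against 2452 and 2933 on the Control arrays. The Control arrays were both lower than either Rhau KO array, and the difference was 0.54 ± 0.23 (SE, limma unadjusted p = 0.0704, adjusted p = 0.873) with all arrays and 0.41 without Control replicate 1 (unadjusted p = 0.0384, adjusted p = 0.333).

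Ndufaf5, Ndufaf7 and Ndufaf8 serve the modification of core subunits in human cells, Ndufaf5 as a hydroxylase, Ndufaf7 as a methyltransferase and Ndufaf8 as the partner of Ndufaf5. Ndufaf7 read 1051 and 1085 on the Rhau KO arrays, against 553 and 927 on the Control arrays, a difference of 0.58 that was 0.20 without Control replicate 1. Ndufaf8 read 4860 and 5073 on the Rhau KO arrays, against 3098 and 4716 on the Control arrays, a difference of 0.38 that was 0.075 without it. Ndufaf5 ran the other way, with 1265 and 1205 on the Rhau KO arrays, against 2146 and 1043 on the Control arrays. Control replicate 1 was its highest array, by 0.88 log2 units over the mean of the others, and the difference of -0.28 was 0.24 without it. Ndufaf5 and its partner Ndufaf8 therefore stood on opposite sides of the other arrays in Control replicate 1.

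Ndufaf1, Ndufaf2 and Ndufaf6 completed the group. Ndufaf1, a member of the complex that assembles the membrane arm in human cells, read 3626 and 3756 on the Rhau KO arrays, against 4015 and 3383 on the Control arrays. Its Rhau KO values lay between the Control values, and the difference was 0.0020, or -0.13 after median centring. Ndufaf2, a paralog of Ndufa12, read 1293 and 1302 on the Rhau KO arrays, against 816 and 1154 on the Control arrays, a difference of 0.42 that was 0.17 without Control replicate 1. Ndufaf6 was the assembly factor whose Control arrays lay closest together, with 2301 and 2492 on the Rhau KO arrays, against 2063 and 2044 on the Control arrays. Its difference was 0.22 with all arrays and 0.23 without Control replicate 1.

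**Figure D2:**
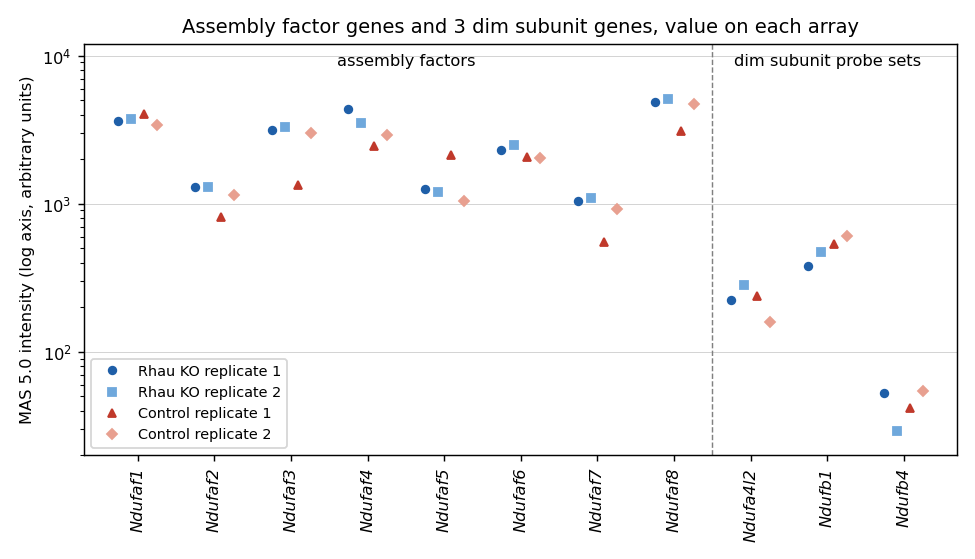
Intensity on a log axis is plotted for the 8 assembly factor genes and, right of the dashed line, for the 3 subunit genes with dim probe sets, with 1 point for each of the 4 arrays. Control replicate 1 is the lowest point for Ndufaf2, Ndufaf3, Ndufaf4, Ndufaf7 and Ndufaf8 and the highest for Ndufaf1 and Ndufaf5.

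Removing Control replicate 1 brought 34 of 36 subunits and 5 of 8 assembly factors to a lower value, as the plot of differences shows. Without it, the differences ran between -0.53 and 0.67 for subunits and between 0.075 and 0.41 for assembly factors. The exceptions among subunits were Ndufa4l2 and Ndufb6. Ndufb6 was the bright subunit in which Control replicate 2, not Control replicate 1, was the lowest array, and its difference was 0.13 with all arrays and 0.21 without Control replicate 1.

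**Figure D3:**
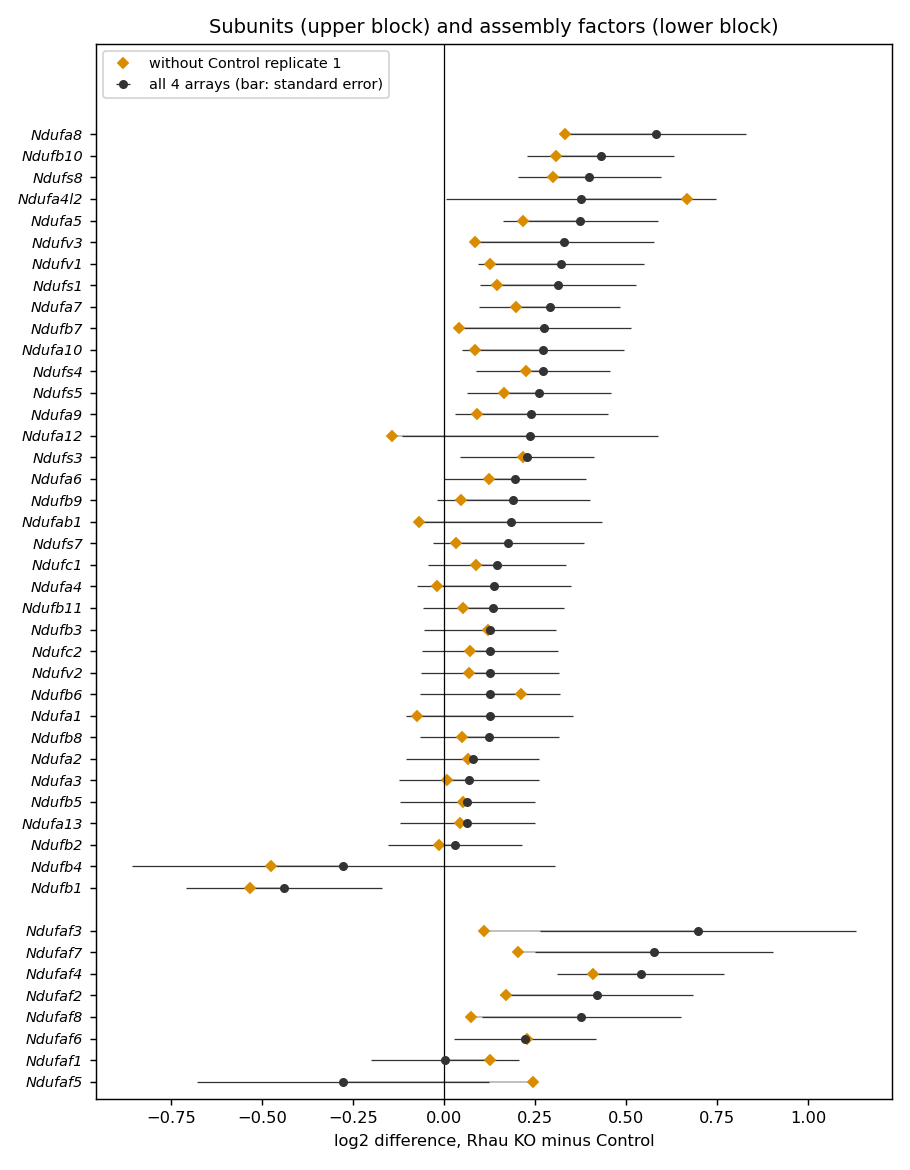
Each black point is the log2 difference (Rhau KO minus Control) of 1 gene with all 4 arrays, its bar the limma standard error, and each orange diamond the same difference without Control replicate 1. Most diamonds lie left of their points and nearer to 0, while Ndufaf5 crosses from -0.28 to 0.24.

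Probe sets of one gene served as a check on the chosen one. Over all 88 complex I probe sets with 1 symbol, 78 were higher and 10 lower, and 6 of those 10 had a mean intensity under 1000. Of 22 genes with several probe sets, 6 held probe sets of opposite sign (Ndufa12, Ndufab1, Ndufb2, Ndufb5, Ndufb8 and Ndufs4). Counting only probe sets with a mean of at least 1000, 3 of them did so. Leaving out Control replicate 1 brought the lower bright probe sets of Ndufs4 and Ndufb5 to 0.14 and 0.027. In Ndufa12 the 3 bright probe sets differed by 0.24, 0.24 and 0.19, and the dim one by -0.98.

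Complex I was then set beside the other complexes of the chain. For complex II, which oxidises succinate, 4 subunits and 4 assembly factors together had a median difference of 0.31, and 0.30 without Control replicate 1. With all arrays 7 of 8 were above 0 (56.9% of all genes). The 4 subunits alone had a median of 0.31, which was 0.13 without Control replicate 1, and the 4 assembly factors 0.33 and 0.39. Of the 8, 1 was higher at an unadjusted p under 0.05 with all arrays (2.14% of all genes) and 5 were without Control replicate 1 (7.51% of all genes). The one with all arrays was the assembly factor Sdhaf2, with 2726 and 3033 on the Rhau KO arrays, against 1808 and 2027 on the Control arrays, a difference of 0.59 that was 0.50 without Control replicate 1. Complex III (9 genes), complex IV (14 genes) and ATP synthase (16 genes) had medians of 0.19, 0.13 and 0.16 with all arrays. Every gene of these lists was then above 0 (56.9% of all genes). After median centring 6 of 9, 7 of 14 and 11 of 16 were above 0 (46.7% of all genes). Without Control replicate 1 these medians were 0.039, -0.011 and 0.036, and after median centring 0.056, -0.0016 and 0.028. The complex I subunit medians under the same settings were 0.19, 0.078 and 0.057, and those of all genes 0.091, 0.030 and -0.040. Differences between complexes were not tested.

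**Figure D4:**
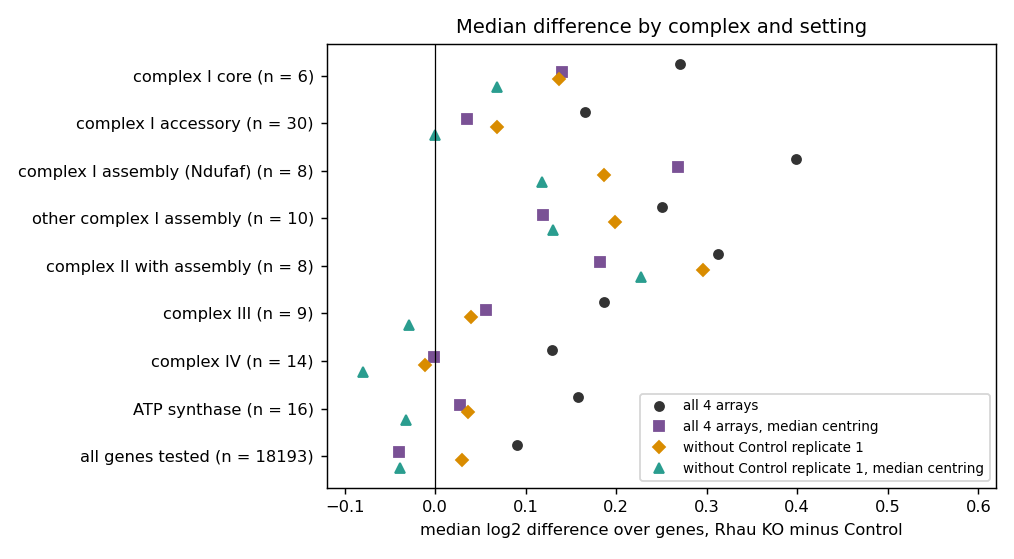
Median log2 differences (Rhau KO minus Control) over the genes of each complex are plotted for 4 settings, with all 4 arrays or without Control replicate 1, and with or without centring each array on its median. Complex I core subunits, both groups of complex I assembly factors and complex II taken with its assembly factors stay above 0 in all 4 settings. The complex I accessory subunits reach -0.00012, without Control replicate 1 and with centring. Complexes III and IV, ATP synthase and all genes reach values further below 0.

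Assembly factors of complex I that do not carry an Nduf name were described from the same arrays. Over 10 measured genes the median was 0.25 with all arrays, 0.20 without Control replicate 1 and 0.12 after median centring. With all arrays 9 of 10 were above 0 (56.9% of all genes), and after centring 8 of 10 (46.7% of all genes). Only Aifm1, needed for the import of several complex I subunits, had an unadjusted p under 0.05 with all arrays, while 2 of 10 were higher at that level without Control replicate 1 (2.14% and 7.51% of all genes). Aifm1 had a difference of 0.53 with all arrays and 0.46 without Control replicate 1, reading 4532 and 4600 on the Rhau KO arrays, against 3006 and 3322 on the Control arrays. Foxred1, an assembly factor of the later steps, read 1175 and 1067 on the Rhau KO arrays, against 363 and 826 on the Control arrays, a difference of 1.03 that was 0.44 without Control replicate 1.

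Regulators of mitochondrial biogenesis had a median of 0.14 over 10 genes with all arrays, 0.12 without Control replicate 1 and 0.014 after median centring. Among them only Ppargc1a, the coactivator that drives mitochondrial genes in muscle, had an unadjusted p under 0.05 with all arrays, while 4 of 10 were higher at that level without Control replicate 1 (2.14% and 7.51% of all genes). Ppargc1a had a difference of 0.93 with all arrays and 0.48 without Control replicate 1, reading 8032 and 7631 on the Rhau KO arrays, against 3021 and 5600 on the Control arrays. Mitochondrial genes outside the chain, 12 in number, had a median of 0.11 with all arrays and 0.038 without Control replicate 1. With all arrays 8 of 12 were above 0 (56.9% of all genes), and after median centring 5 of 12 (46.7% of all genes).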

How the data were processed

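Total RNA of hearts was hybridised to Affymetrix GeneChip expression arrays, and the authors deposited linear MAS5 intensity values, made in GeneSpring. The trimmed mean intensity was 500.004 on the Rhau KO arrays and 500.004 and 500.003 on the Control arrays, and 0 sample columns could not be matched to a label. No detection calls were used here. Of 45101 probe sets, 64 controls were left out, and 34958 carried 1 gene symbol in the platform annotation, 932 several and 9211 none. Each gene was represented by its brightest probe set by mean log2 intensity over the 4 arrays. Differences of log2 intensity were tested with limma (lmFit, eBayes with trend) over 18193 genes with Benjamini-Hochberg adjustment. The number of arrays limits the precision. Another 10 probe sets that shared an Nduf symbol with other genes were not used.

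Every complex I gene could be named. Values on each array were given for core subunits, assembly factors, Ndufa4 and Ndufa4l2, members with the smallest p, the largest or smallest difference or the largest gap of Control replicate 1, and members whose probe sets differ in sign. Members and lists were chosen with earlier results of these data known. The motifs were chosen after the values. Alternatives were no variance trend, quantile normalization, median centring, a pseudocount of 32, the brighter genes, all probe sets averaged or single, a replicate block, the methods' t-test, leaving out each array, and leaving out Ndufa4 and Ndufa4l2. Promoters came from RefSeq (GRCm38.p6). Tools were R 4.3.3 with limma 3.58.1 and Python 3.11.15 with pandas 2.3.3, numpy 2.4.6 and matplotlib 3.10.9, and the fit was tested on simulated data.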

Additional observations from a re-analysis of the deposited data

How the results depend on the processing

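The median log2 difference of the 36 complex I subunits, 0.19 with all arrays, was 0.057 with median centring, where the median of all genes was -0.040. Without Ndufa4 and Ndufa4l2 the subunit median with all arrays was also 0.19. Leaving out 1 array at a time gave a subunit median of 0.078 (without Control replicate 1) to 0.30 (without Control replicate 2). For assembly factors, 0.40 with all arrays, the same range was 0.19 to 0.67. In combinations chosen after seeing the data, without Control replicate 1 and with median centring the medians were 0.0096 for subunits and 0.12 for assembly factors, and with quantile normalization the subunit median was 0.071. Genes at an adjusted p of 0.05, 0 in limma with all arrays, numbered 0 to 4097 when 1 array was left out, and 149 without Control replicate 1. Subunits at an unadjusted p of 0.05, 0 with all arrays, numbered 2 among the brighter genes, 5 by the methods' t-test and 0 to 23 when 1 array was left out. Median centring shifted all genes by -0.13 and gave -0.13 for Ndufaf1, -0.10 for Ndufb2, -0.067 for Ndufb5, -0.0060 for Ndufb8 and -0.0041 for Ndufv2. The mean of all probe sets gave -0.082 for Ndufa12, -0.10 for Ndufb2 and -0.092 for Ndufb8. Leaving out 1 array gave -0.14 to 0.61 for Ndufa12, -0.018 to 0.29 for Ndufa4, -0.070 to 0.44 for Ndufab1, -0.12 to 0.13 for Ndufaf1, -0.80 to 0.24 for Ndufaf5, -0.015 to 0.075 for Ndufb2 and -0.70 to 0.15 for Ndufb4. The causes were not tested. No sign changed in any of the 27 complex I genes given by array with quantile normalization or a pseudocount of 32. The fit with no variance trend and the t-test alter only the variance, so they could not change a sign. Arrays with the same replicate number did not deviate together (correlation 0.006 over 18193 genes), and a replicate block gave 0 adjusted and 694 unadjusted calls. In this balanced design such a block cannot change a log2 difference, so the subunit median stayed at 0.19. With 2 arrays a group, and most heart markers low on 1 of the Control arrays, small differences cannot be told apart from the spread between these samples. Dim probe sets such as that of Ndufb4 carry little signal over background.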
